A study of Mus musculus with 12 samples.

Results

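The cKO libraries in which the table held a value of 0 for the deleted gene, Nkx6-1, were compared with the control libraries. They were 3 of the 12 libraries of the series and 3 of its 11 distinct ones. The mice carried an Aldh1l1-GFP reporter, which labels astrocytes, and GFP-positive cells were sorted from spinal cord of males and females labelled as conditional knockout (cKO) of Nkx6-1 or as control. The rule took every cKO library with a value of 0 for Nkx6-1 and counted a matching pair of libraries once, which gave male cKO replicate 1, female cKO replicate 1 and female cKO replicate 2. The remaining distinct cKO libraries, male cKO replicate 3 and female cKO replicate 3, had Nkx6-1 reads and were not used to choose genes. All 6 controls, 3 male and 3 female, formed the other side of the comparison. The labels give the reporter for every library. They give neither the Cre driver nor the part of Nkx6-1 that was removed, the age of the mice, the strain, nor whether replicates came from separate animals. The p-values given here thus reflect how far these libraries spread, and that spread may be technical.

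Nkx6-1 encodes a homeodomain transcription factor of the ventral neural tube, where it acts with other homeodomain and basic helix-loop-helix factors to set the identity of progenitor domains. In the ventral spinal cord, astrocytes keep some of this regional code, and the secreted proteins Reln and Slit1 mark their positional subtypes. The question put to the data was which genes set the cKO libraries without Nkx6-1 reads apart from controls, and whether these genes had control levels in the cKO libraries that kept Nkx6-1 reads.

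Nkx6-1 lies on the reverse strand of chromosome 5 (mm10, chr5:101658139-101664996). It had 0 reads in each of the 3 cKO libraries chosen. In those libraries 3 reads, the limit that a count of 0 allows, would have equalled 2.56, 2.09 and 5.79 normalized counts, in the order male replicate 1, female replicate 1 and female replicate 2, which is kept below. The 2 cKO libraries with reads had 18 and 19 reads, or 25.6 normalized counts in male cKO replicate 3 and 28.3 in female cKO replicate 3. In controls the reads numbered 2 to 19, and the normalized count had a lowest value of 1.51, a median of 4.09 and a highest of 15.2. Both cKO-labelled libraries with reads thus lay above every control in normalized counts, though not in reads. The labels do not give the part of Nkx6-1 removed, so reads of the gene cannot decide whether the cKO label holds. These values chose the libraries, so they are a description without a test. The lowest control, at 1.51, lay below the 3-read limit of each of the 3 cKO libraries, so no 0 was distinguishable from it. Because 4 of the 6 controls lay below the 3-read limit of female cKO replicate 2, a 0 there was not distinguishable from the lower control levels at this depth.

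Depth was 2922930 to 5662377 reads in genes in the cKO libraries without Nkx6-1 reads, 2679412 to 4147737 in the cKO libraries with reads and 2246412 to 9054934 in controls. The ribosomal RNA precursor gene Rn45s took 20.9% to 40.6% of the reads in genes. The cKO libraries without Nkx6-1 reads had 13898 ± 123 genes with a read (SD, n = 3), and controls had 14776 ± 445 (SD, n = 6). Every cKO library without reads was below every control, with an exact two-sided permutation p of 0.0238, the smallest that 3 against 6 libraries can give. The cKO libraries with reads had 13611 (male) and 13967 (female) genes with a read, also below the lowest control at 14120. At an equal draw of 1389745 reads, leaving out Rn45s, the numbers were 13431 ± 209 in the cKO libraries without Nkx6-1 reads and 14120 ± 548 in controls. The exact two-sided permutation p between these groups was 0.0476. The cKO libraries with reads had 13228 (male) and 13779 (female) at that draw. The part of this difference in the results below was not tested. The astrocyte genes of the label were abundant in all libraries: Aqp4, the astrocyte water channel, had 3293 to 8529 normalized counts in the cKO libraries without Nkx6-1 reads, 4540 and 8450 in the cKO libraries with reads and 1334 to 7699 in controls. Myelin genes were abundant as well, Mbp with 72970 to 398900, 85920 to 318000 and 43570 to 258400 normalized counts in the same order of groups.

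Of 12820 genes tested between the 3 cKO libraries without Nkx6-1 reads and the 6 controls, 0 passed an adjusted p of 0.05 (limma with Benjamini-Hochberg adjustment over all genes tested), which is 0.0% of them. At an unadjusted p under 0.05, 389 genes were higher (3.03%) and 583 were lower (4.55%) in the cKO libraries without Nkx6-1 reads. edgeR's quasi-likelihood test on the recovered reads also passed 0 genes, with 848 at an unadjusted p under 0.05. DESeq2 passed 36, of which 13 were higher and 23 lower. The groups did not overlap in 398 genes, with the cKO side higher in 161 (1.26%) and lower in 237 (1.85%). The 30 genes with the smallest p among these separated genes are described next. Of them, 9 were higher and 21 lower, and their adjusted p ran between 0.108 and 0.568 (limma), so that none passed.

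The 9 genes with higher values were Fgf11, Nrp2, Flrt2, Myh10, Fgfr1, Arhgap26, Eva1a, Syn1 and Fgfr3. Fgf11, which encodes an intracellular member of the fibroblast growth factor (FGF) family that is not secreted and binds sodium channels, had the smallest p of all genes. It had 335, 434 and 480.5 normalized counts in the cKO libraries without Nkx6-1 reads, 81.2 and 105.9 in the cKO libraries with reads, and a lowest value of 34.3, a median of 71.6 and a highest of 145 in controls. Each of the 3 chosen libraries stood well clear of every control, whereas both cKO libraries with reads lay inside the range of controls. The log2 fold change against controls was 2.54 (SE 0.42), with an unadjusted p of 8.4e-06 and an adjusted p of 0.108 (limma). Over its 23 alternatives the adjusted p of Fgf11 ran between 7.29e-05 (DESeq2) and 0.999 (limma, female libraries alone). It was 0.0387 without female control replicate 1, the control with the highest Fgf11, and 0.82 without male cKO replicate 1 (limma).

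Nrp2, a receptor for class 3 semaphorins and for vascular growth factors, had 312, 380.1 and 380.2 normalized counts in the cKO libraries without Nkx6-1 reads, 178 and 237 in those with reads, and 71.3 to 164 in controls (median 128.6). The cKO libraries with reads lay between the other groups and overlapped neither. The log2 fold change was 1.61 (SE 0.35), at an adjusted p of 0.474. Flrt2, a transmembrane protein that binds Unc5 and FGF receptors, had 580, 306 and 492 normalized counts without Nkx6-1 reads and 272 and 240 with reads, against 169 to 247 in controls (median 196). Here female cKO replicate 3 was inside the control range and male cKO replicate 3 just above it. Myh10, the heavy chain of non-muscle myosin IIB, had 244, 296 and 303 normalized counts without reads, 147 and 221 with reads and 72.9 to 178 in controls (median 106.8). Its order of groups was that of Nrp2, except that male cKO replicate 3 fell inside the control range.

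Eva1a, a membrane protein of autophagy, had 137, 54.3 and 218 normalized counts in the cKO libraries without Nkx6-1 reads, 9.97 and 22.4 in those with reads, and 19.3 to 41.7 in controls (median 24.2). Arhgap26 had 329, 164 and 284 without reads, 67.0 and 85.0 with reads and 72.6 to 146 in controls (median 97.0). For both genes the cKO libraries with reads sat in the lower part of the control range or below it. Syn1, which coats synaptic vesicles in neurons, had 393.5, 374.5 and 409 normalized counts without reads, 55.6 and 191 with reads and 160 to 222 in controls (median 194). The 3 chosen libraries differed little from each other, and male cKO replicate 3 was below every control. Log2 fold changes of these 3 genes were 2.13 (SE 0.57), 1.35 (SE 0.36) and 1.01 (SE 0.28), at an adjusted p of 0.568 each (limma).

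**Figure D1:**
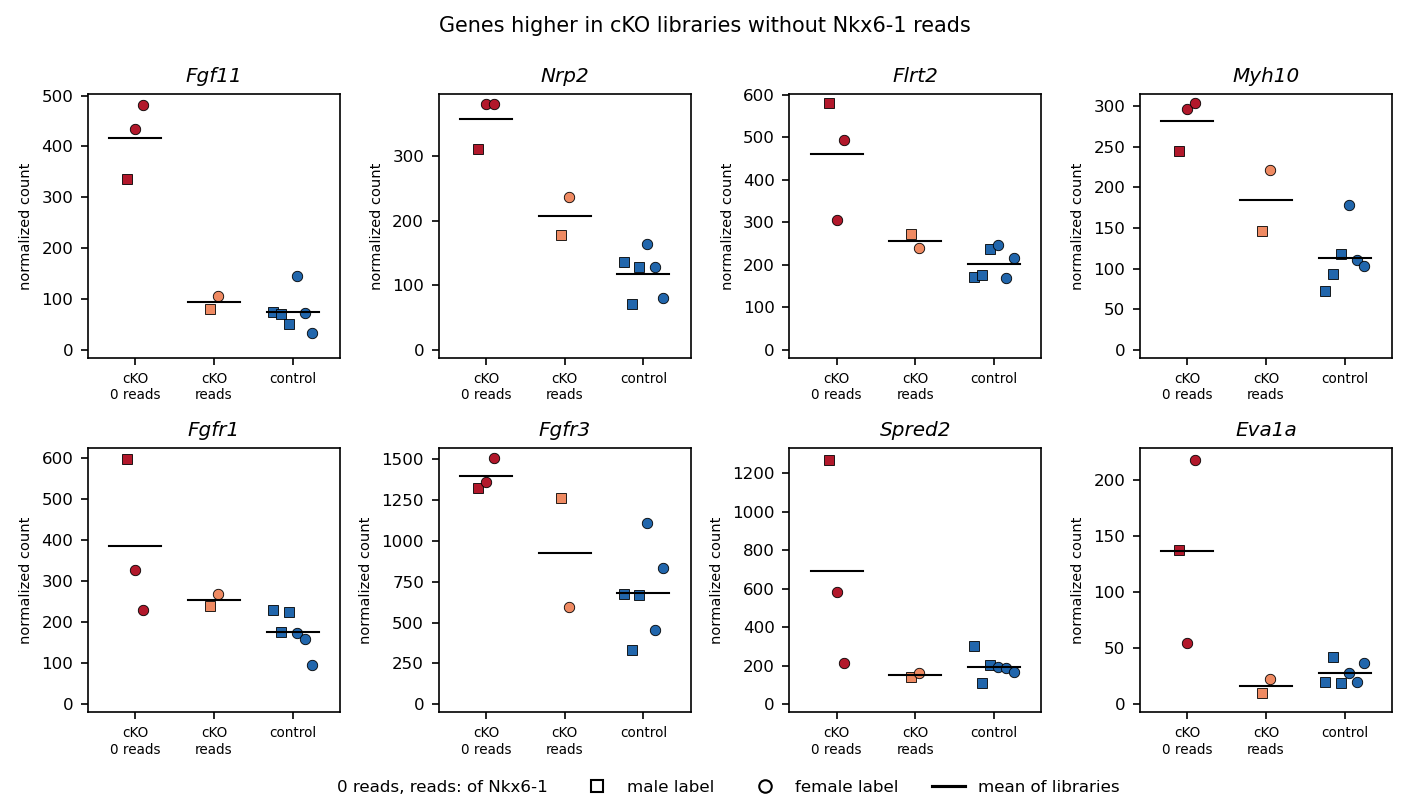
Normalized counts (vertical axes) of 8 genes in the 11 distinct libraries, with cKO libraries without Nkx6-1 reads (dark red, 0 reads) at the left, cKO libraries with reads (orange) in the middle and controls (blue) at the right; squares are male and circles female libraries, and lines are means. Fgf11 sits at 335 to 480.5 in the cKO libraries without reads and at 34.3 to 145 in controls, with both cKO libraries with reads in the control range.

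The control means of the 21 genes with lower values were spread from P4htm, Cklf and Mdga1 at the low end to Clgn and Slc25a46 at the high end. P4htm, a transmembrane prolyl hydroxylase of the endoplasmic reticulum, had 0 reads in all 3 cKO libraries without Nkx6-1 reads. It had 7.12 and 26.8 normalized counts in the cKO libraries with reads and 8.54 to 39.6 in controls (median 24.9). Taking 3 reads per library as the limit of a 0, it was at least 6.81-fold lower in the cKO libraries without Nkx6-1 reads than in controls, with an unadjusted p of 0.000187 and an adjusted p of 0.474 (limma). Among the cKO libraries with reads, the female one was inside the control range and the male one just under it.

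Plk3, a stress-responsive polo-like kinase, had 3.41, 18.8 and 30.9 normalized counts without Nkx6-1 reads, 29.9 and 35.8 with reads and 57.9 to 115.5 in controls (median 75.4). All 5 cKO libraries were below every control. Lca5, which encodes a protein of the ciliary axoneme, had 4.27, 4.18 and 17.4 without reads, 135 and 70.1 with reads and 32.1 to 119 in controls (median 51.8). In contrast to Plk3, the cKO libraries with reads were at or above the upper part of the control range. Log2 fold changes were -2.64 (SE 0.57) for Plk3 and -2.90 (SE 0.66) for Lca5, at an adjusted p of 0.474 each (limma).

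Mrpl18, a protein of the mitochondrial ribosome, had 23.04, 38.3 and 21.2 normalized counts without Nkx6-1 reads, 209.5 and 47.7 with reads and 70.9 to 139 in controls (median 117). The cKO libraries with reads disagreed here, the male one lying above all controls and the female one below them. Nploc4, a cofactor of the segregase p97, had 14.5, 55.0 and 48.2 without reads, 88.3 and 74.5 with reads and 93.0 to 180 in controls (median 119). Polr3d, a subunit of RNA polymerase III, had 11.1, 16.0 and 9.65 without reads, 27.1 and 46.2 with reads and 44.4 to 77.4 in controls (median 59.0). Nploc4 gave both cKO libraries with reads intermediate values, as did Polr3d in the male one. Ap4e1, a subunit of the AP-4 adaptor of vesicle coats, had 15.4, 20.9 and 27.0 without reads, 82.6 and 89.5 with reads and 45.01 to 134 in controls (median 75.1), so that both cKO libraries with reads were in mid control range.

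For several lower genes the values rested on few reads. Slc22a3, an organic cation transporter, had 2, 5 and 0 reads in the cKO libraries without Nkx6-1 reads. Cklf, a chemokine-like factor, and Mdga1, a surface protein that binds neuroligin, each had 0, 4 and 0 reads. C5ar1, the receptor for complement C5a on myeloid cells, had 0, 0 and 4 reads, and Tbc1d22a had 1, 6 and 1. Controls had at least 15.4 (Slc22a3), 8.76 (Cklf), 12.9 (Mdga1), 11.7 (C5ar1) and 10.4 (Tbc1d22a) normalized counts. The fewest reads in a control were 25 (Slc22a3), 5 (Cklf), 6 (Mdga1), 18 (C5ar1) and 7 (Tbc1d22a), so some control values rested on few reads as well. The remaining lower genes were Clgn, Tprn, Adal, Kpna6, Slc25a46, Iffo2, Gdpd5, Rffl and Atrip, with log2 fold changes of -2.76 (Adal) to -1.07 (Slc25a46). Among them Kpna6, an importin that carries proteins into the nucleus, had 87.9, 114 and 104 normalized counts without reads, 194 and 113 with reads and 210.5 to 281.5 in controls (median 239). None of the 5 cKO libraries reached the lowest control. Exons of 13 of the 30 genes overlap an exon of another annotated gene, so their counts are uncertain. Plk3, Mrpl18 and Slc22a3 are among them, as are the higher genes Fgfr1, Fgfr3, Syn1, Arhgap26 and Eva1a. For 11 genes an overlapping exon is on the opposite strand, and strand-specific counting was not given. Arhgap26, Iffo2 and Atrip overlap an exon on the same strand, which such counting would not settle. Fgf11, Nrp2, P4htm, Lca5 and Nploc4 have no exon overlap on either strand.

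**Figure D2:**
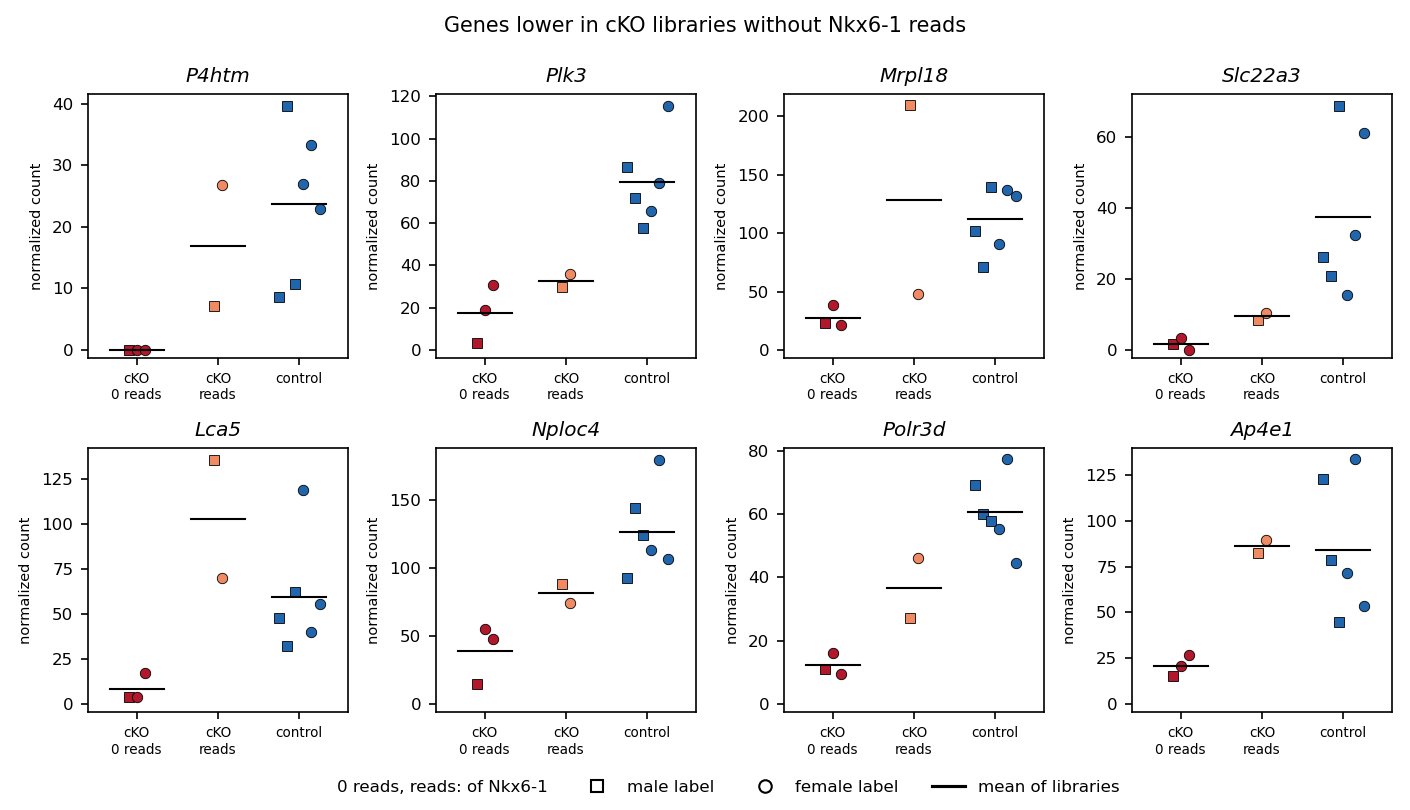
Normalized counts (vertical axes) of 8 genes with lower values in cKO libraries without Nkx6-1 reads, drawn with the same groups, order and symbols as for the higher genes. P4htm is at 0 in all 3 cKO libraries without reads and at 8.54 to 39.6 in controls, while Lca5 and Ap4e1 in the cKO libraries with reads lie within or above the control range.

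Whether the 30 genes were at control level in the cKO libraries with Nkx6-1 reads was read from these libraries, which had no part in choosing the genes. The 6 controls, whose range was the yardstick, did have a part in that choice. Both of these libraries lay inside the range of the 6 controls for 5 of the 30 genes, 1 of them lay inside for 14 and neither for 11. The 5 were Fgf11, Tbc1d22a, Gdpd5, Ap4e1 and Rffl. Over all 12820 genes tested, both libraries lay inside the control range for 41.4%, and among the 398 separated genes for 23.1% (92 genes), so the count of 5 was no higher than the background. For 9 of the 30 genes both libraries were outside the control range on the side of the other cKO libraries, and for 2 of these, Clgn and Fgfr1, both reached the range of the cKO libraries without Nkx6-1 reads.

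The 2 cKO libraries with reads often differed from one another. Male cKO replicate 3 was in the control range for 9 genes, between the groups for 10, within the range of the cKO libraries without reads or beyond it for 4, and past the controls on the opposite side for 7. Female cKO replicate 3 was in the control range for 15 genes, between for 9, within the range of the cKO libraries without reads or beyond it for 5 and on the opposite side for 1. On the log2 scale the mean of the 2 libraries kept the direction of the other cKO libraries in 22 of the 30 genes. The same count over all genes tested was not made. Both directions are taken from the same control mean, which by itself raises such agreement, so the 22 are a description. The median over the 30 genes was 31.4% of the distance between the control mean and the mean of the cKO libraries without reads. For single genes this share ran between -88.2% (Syn1) and 63.4% (Slc25a46). Since the genes were picked for their separation in the 3 chosen libraries, values nearer to controls in libraries not used for the choice are partly fixed by that choice.

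**Figure D3:**
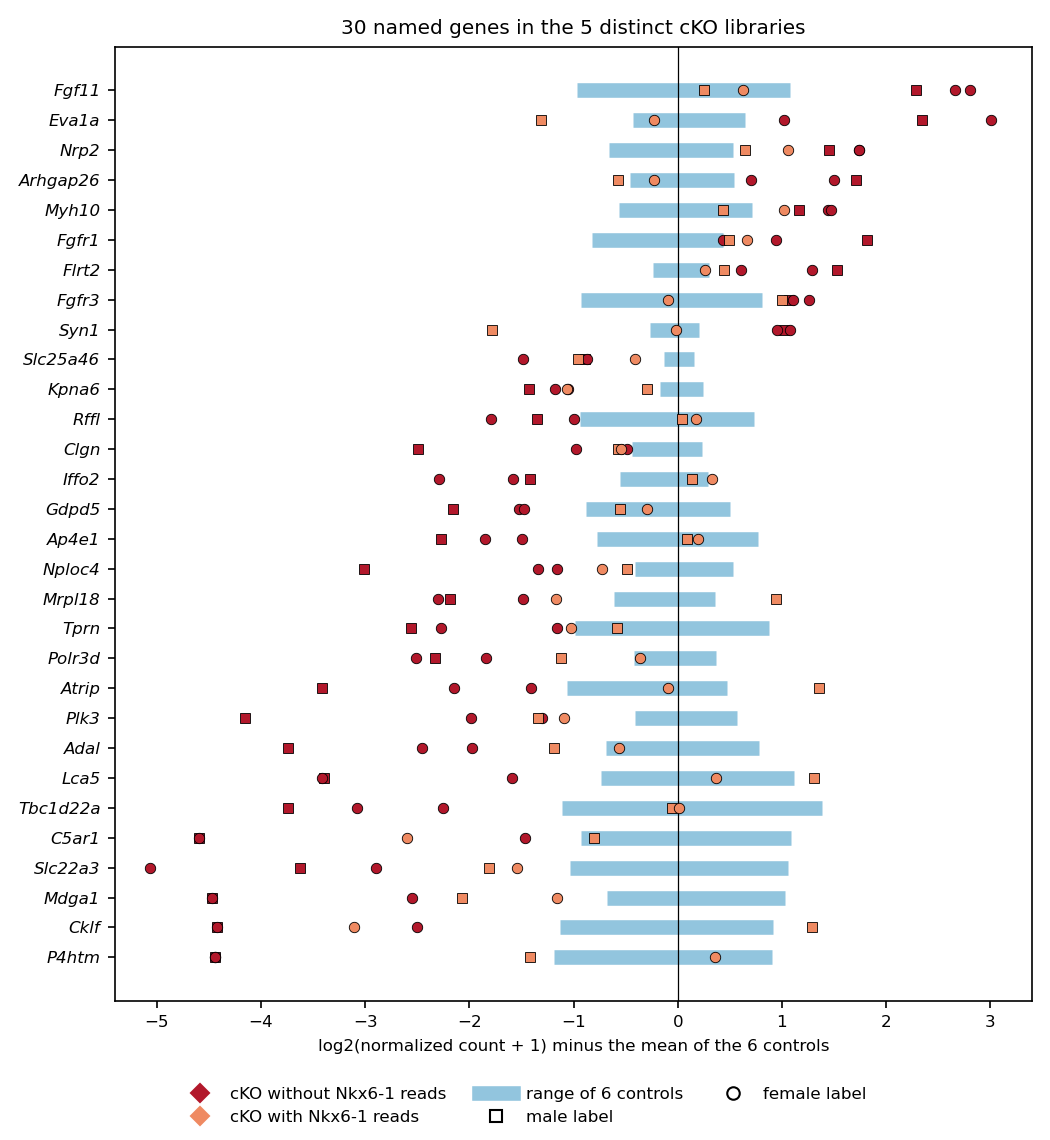
Each of the 30 genes in the 5 distinct cKO libraries, as log2(normalized count + 1) minus the mean of the 6 controls (horizontal axis), with the control range as a blue bar, cKO libraries without Nkx6-1 reads in dark red and those with reads in orange; squares are male and circles female libraries. The orange points of Fgf11, Tbc1d22a, Gdpd5, Ap4e1 and Rffl fall in the blue bars, and those of Clgn and Fgfr1 among the dark red points.

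The difference between the 2 kinds of cKO library was then tested in 1 fit of 11 libraries. It uses the same 3 cKO libraries as the first comparison. Of 13107 genes, 0 passed in the cKO libraries without against those with Nkx6-1 reads (limma, 0.0%), 459 were higher (3.5%) and 354 lower (2.7%) at an unadjusted p under 0.05, or 6.2% together. DESeq2 passed 22 genes, and edgeR passed 0 with 696 under that p. Among the 30 genes, 18 had an unadjusted p under 0.05 in this comparison, on the side that chose them, a count that the choice of genes also raises and that is given as a description. The log2 fold changes, cKO without over cKO with reads, were 2.10 (SE 0.54) for Fgf11 with an adjusted p of 0.607, 2.86 (SE 0.79) for Eva1a, 1.73 (SE 0.48) for Arhgap26 and 1.86 (SE 0.44) for Syn1. For Lca5 it was -3.68 (SE 0.82), the smallest p of the lower genes, and for Nrp2 0.75 (SE 0.44) with an unadjusted p of 0.105.

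The genes with the smallest p between the 2 kinds of cKO library also included ones whose outlying values were in the cKO libraries with reads. Pam16, a component of the mitochondrial import motor, had 49.5, 91.9 and 44.4 normalized counts without reads, 1.42 and 2.98 with reads and 19.5 to 60.3 in controls. Its log2 fold change without over with reads was 4.23 (SE 0.85), at an adjusted p of 0.379 (limma). Cdc14b, a dual-specificity phosphatase of the cell cycle, had 157, 124 and 123.5 without reads, 5.70 and 20.9 with reads and 24.1 to 61.8 in controls. The 2 kinds of cKO library lay on opposite sides of the controls for Cdc14b, and for Pam16 the low values of the libraries with reads stood out. Tmem104 completed the 5 with 398, 277 and 162 without reads, 72.7 and 64.1 with reads and 152 to 307 in controls, a pattern like that of Pam16.

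Against controls, which both comparisons share, the cKO libraries with Nkx6-1 reads gave 0 passing genes of 13107 (limma, 0.0%), with 283 higher (2.16%) and 619 lower (4.72%) at an unadjusted p under 0.05. DESeq2 passed 11 genes. edgeR passed 0 with 803 under that p. The smallest p belonged to Pam16, followed by Herpud1, a component of endoplasmic reticulum quality control. Herpud1 had 12.8 and 31.3 normalized counts in the cKO libraries with reads and 77.2 to 133 in controls, against which the cKO libraries without reads had 86.2, 115 and 69.5. Ypel2, Nkap and Cpm followed, with log2 fold changes of -1.93, -2.01 and -1.71 in the cKO libraries with reads and of -1.07, -0.50 and -0.33 in those without.

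Other genes had like values in both kinds of cKO library. Slc16a4, of the monocarboxylate transporter family, had 224, 61.3 and 280 normalized counts without Nkx6-1 reads, 177 and 136 with reads and 31.7 to 59.7 in controls (median 51.1). Every one of the 5 cKO libraries was above every control, female cKO replicate 1 by little. Its log2 fold change was 1.71 (SE 0.51) without reads and 1.69 with reads, each against the same controls, and the difference of 0.03 between the 2 had an SE of 0.63. Mcm2, a subunit of the replicative helicase, had 12.8, 11.8 and 7.72 without reads, 9.97 and 14.9 with reads and 18.4 to 137 in controls (median 62.9), so all 5 cKO libraries lay below all controls. Elovl7, an enzyme that lengthens fatty acids, had 579, 757 and 648 without reads, 388 and 742.5 with reads and 840 to 1495 in controls (median 1097). It likewise separated all 5 cKO libraries from controls, as did the early response gene Junb, with 471, 468.5 and 442 without reads, 406 and 441 with reads and 142 to 392 in controls. How many of all genes tested separated the 5 cKO libraries from controls was not counted. Slc16a4, Mcm2, Elovl7 and Junb, like Plk3 and Kpna6 above, are therefore examples without a background share. When all 5 distinct cKO libraries were set against controls, 0 of 13107 genes passed (limma, 0.0%), 397 were higher (3.03%) and 587 lower (4.48%) at an unadjusted p under 0.05, or 7.51% together, and edgeR passed 0 with 891 under that p. DESeq2 passed Slc16a4, Mcm2, Ncapd3 and Ptp4a3. Of these, Ptp4a3 was named because DESeq2 passed it.

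Fgf11 belongs to the FGF family but is intracellular and not one of its secreted ligands. The family was read together with genes of FGF signalling. Secreted FGF ligands bind receptor tyrosine kinases that act through Ras and ERK, and Spry, Spred and Dusp6 proteins limit that signal. Of 19 tested genes of this group, 5, Fgf11 among them, were higher and 0 lower at an unadjusted p under 0.05 in the cKO libraries without Nkx6-1 reads, where 3.03% of all genes were higher. None passed the adjusted threshold. The median log2 fold change was 0.34, and that of all genes was 0.00. In the cKO libraries with reads the median was 0.15, with 0 genes higher and 1 lower at an unadjusted p under 0.05 (2.16% and 4.72% of all genes). The group was chosen with the high value of Fgf11 already known.

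Of the receptors, Fgfr1 had 599, 327 and 229.7 normalized counts without reads, 239 and 268 with reads and 95.2 to 229.6 in controls (median 174). Female cKO replicate 2 exceeded the highest control by little, and both cKO libraries with reads were as high as it. Fgfr3, which in spinal cord marks astrocytes, had 1324, 1361 and 1509 without reads, 1264 and 593 with reads and 332 to 1109 in controls (median 672). The male cKO library with reads was near the other cKO libraries, and the female one was in the control range. Log2 fold changes were 1.19 (SE 0.32) for Fgfr1 and 1.08 (SE 0.31) for Fgfr3, at an adjusted p of 0.568 each (limma), and Fgfr2 was at -0.30 (SE 0.31).

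Among the inhibitors, Spred2 had 1270, 580.5 and 216 normalized counts without reads, 141 and 159.5 with reads and 110 to 301.5 in controls (median 191). Female cKO replicate 2 was inside the control range, and the male library was far above the rest. Its log2 fold change was 1.64 (SE 0.42) against controls and 1.92 (SE 0.53) against the cKO libraries with reads. Spry4 had 272, 292 and 253 without reads, 246.5 and 288 with reads and 98.5 to 312 in controls. One male control was above all cKO libraries for Spry4, whose log2 fold change was 0.82 (SE 0.34). The targets Etv4 and Etv5, transcription factors that FGF signalling induces, were at 1.04 (SE 1.01) and -0.10 (SE 0.30) on the log2 scale, and Dusp6 was at 0.35 (SE 0.37).

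**Figure D4:**
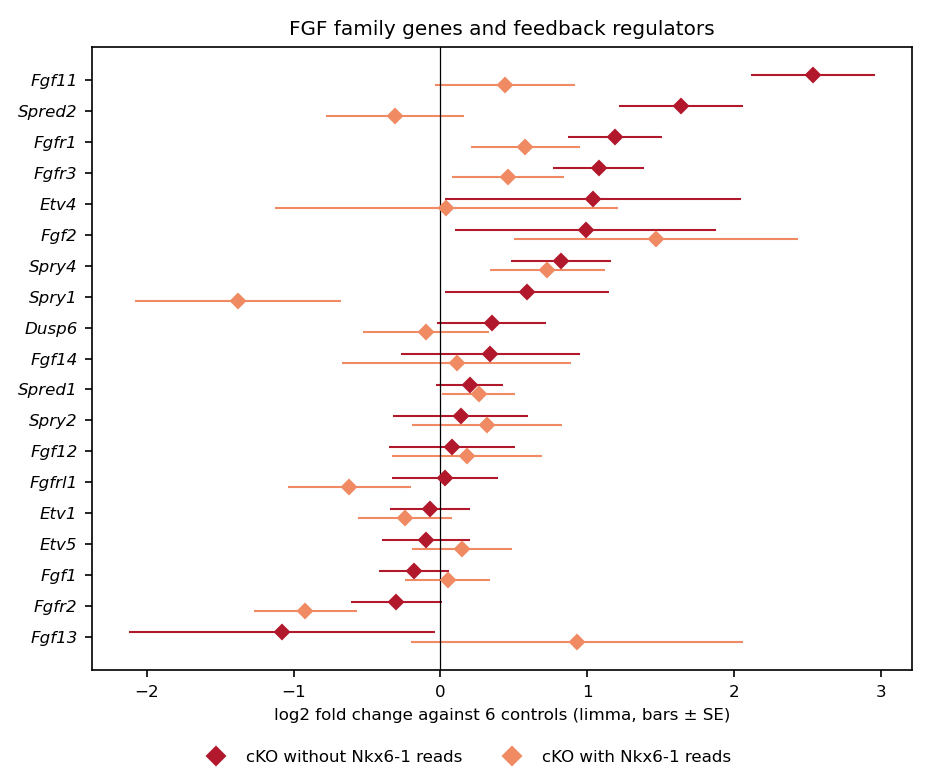
Log2 fold change against the 6 controls (horizontal axis, limma estimate ± SE) of the 19 tested FGF family genes, receptors, feedback regulators and targets, in cKO libraries without Nkx6-1 reads (dark red, upper) and with reads (orange, lower), both against the same controls. Fgf11 is at 2.54 without reads and 0.44 with reads, and Spred2 at 1.64 and -0.31.

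Reln and Slit1, the secreted markers of ventral astrocyte position, behaved unlike each other. Reln had 960, 225 and 276 normalized counts without Nkx6-1 reads, 751 and 722 with reads and 131 to 395.5 in controls (median 256). Male cKO replicate 1 and both cKO libraries with reads were above every control, and the female cKO libraries without reads were within the control range. The log2 fold change was 0.88 (SE 0.38) without reads, at an adjusted p of 0.64 (limma), and 1.64 with reads, at an unadjusted p of 0.00105. Slit1 had 28.2, 10.4 and 21.2 normalized counts without reads (33, 15 and 11 reads), 0 in both cKO libraries with reads and 2.23 to 12.9 in controls (median 4.28). In the cKO libraries with reads, 3 reads, the limit of a 0, equalled 4.27 (male) and 4.47 (female) normalized counts, near the control median. Their values of 0 were thus not distinguishable from the lower control levels at this depth. The 2 kinds of cKO library were apart for Slit1, whereas female cKO replicate 1 lay within the control range. Its adjusted p was 0.652 without reads against controls and 0.612 between the kinds of cKO library (limma). Over 15 tested genes of spinal astrocyte position the median log2 fold change was 0.18 without reads, with 2 higher and 0 lower at an unadjusted p under 0.05 (3.03% and 4.55% of all genes). With reads it was 0.08, with 1 higher and 2 lower (2.16% and 4.72% of all genes).

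Homeodomain and other patterning factors gave no shared direction. Of 15 tested, 0 were higher and 1 was lower at an unadjusted p under 0.05 (3.03% and 4.55% of all genes), and the median log2 fold change was -0.12. The lower one was Nkx2-9, a homeodomain factor of the ventral midline, with 114, 187 and 84.9 normalized counts without reads, 74.1 and 119 with reads and 110.5 to 447 in controls (median 344). All 5 cKO libraries were below the control median. Nkx6-2, the close relative of Nkx6-1, had 34.1, 57.8 and 38.6 without reads, 28.5 and 68.6 with reads and 41.2 to 74.9 in controls, with a log2 fold change of -0.37 (SE 0.49). Gli2 and Gli3, the transcription factors of hedgehog signalling, which patterns the ventral cord, were higher by 1.44 (SE 0.51) and 1.46 (SE 0.58) on the log2 scale, at adjusted p of 0.58 and 0.609 (limma). Gli2 had 95.6, 115.6 and 131 normalized counts without reads, 106.9 and 25.4 with reads and 17.1 to 77.4 in controls (median 37.0). All 3 cKO libraries without reads and male cKO replicate 3 were above the controls for Gli2. Of 25 tested genes of hedgehog, Notch and BMP signalling, 3 were higher and 0 lower at an unadjusted p under 0.05 (3.03% and 4.55% of all genes), with a median of 0.48. That median was 0.11 without male cKO replicate 1, which leaves female cKO libraries, and 0.98 in the male libraries alone.

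All 26 astrocyte identity genes had a higher mean in the cKO libraries without Nkx6-1 reads, where 49.75% of all genes tested were higher. The median log2 fold change of the 26 was 0.76. Only 1, Fgfr3, had an unadjusted p under 0.05, and 3.03% of all genes were higher at that p. The mean log2 value of the 26 genes was 10.2 to 11.1 without reads, 10.3 to 11.3 with reads and 9.19 to 11.01 in controls, so that the groups overlapped. Against controls the cKO libraries with reads had a median of 0.83, and between the kinds of cKO library the median was -0.01. Without reads, the log2 fold changes of Aqp4 and Slc1a2 were 0.30 and 0.33 in female libraries alone. In male libraries alone, with 1 cKO library, they were 1.96 and 1.63. The ribosomal protein list was nearly as one-sided without reads, with 40 of 41 genes higher. The part of the astrocyte list in the results above was not tested. In sorted bulk samples a larger share of a cell type and more RNA per cell cannot be told apart.

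Of 27 mature oligodendrocyte genes, 25 had a lower log2 fold change, and 0 were higher and 8 lower at an unadjusted p under 0.05, where 3.03% of all genes were higher and 4.55% lower. The median was -0.59. Mag, a myelin adhesion protein, had 447, 991 and 504 normalized counts without Nkx6-1 reads, 403 and 915 with reads and 596 to 1810 in controls (median 1140), at a log2 fold change of -0.98 (SE 0.33). St18, a zinc finger factor of oligodendrocytes, had 241.5, 414 and 147 without reads, 234 and 319 with reads and 334 to 827 in controls (median 636). Every distinct cKO library was below the control median for both genes. Female cKO replicates 1 and 3 were nevertheless inside the control range for Mag, as was female cKO replicate 1 for St18. Between the kinds of cKO library the list's median was 0.10. Mbp went the other way, at a log2 fold change of 0.62 (SE 0.72). Gfap, the intermediate filament of reactive astrocytes, was at 0.26 (SE 0.68), and Slc1a2, the glutamate transporter, at 0.83 (SE 0.67).

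The ependymal list stood apart by kind of cKO library. Its mean log2 level over 14 genes was 4.07 to 4.66 without Nkx6-1 reads, 5.50 to 6.41 with reads and 4.38 to 5.76 in controls. The cKO libraries with reads were above all the others but for the overlap with the highest controls. Between the kinds of cKO library 0 of the 14 were higher and 5 lower at an unadjusted p under 0.05, against 3.5% and 2.7% of all genes. The median was -1.54, whereas the median against controls was -0.48 without reads and 1.14 with reads. Of its defining members, Foxj1 had 55.5, 114 and 30.9 normalized counts without reads, 24.2 and 124 with reads and 41.7 to 96.5 in controls. For Foxj1 the male cKO library with reads was thus below every control and the female one above every control. Ccdc153 had 1.71, 0 and 21.2 without reads, 67.0 and 59.6 with reads and 6.35 to 32.3 in controls, and Tmem212 had 0, 6.96 and 0, 22.8 and 101, and 0 to 35.6. Both cKO libraries with Nkx6-1 reads were thus above every control for Ccdc153, but only the female one was for Tmem212. Female control replicate 3, the control with the highest Nkx6-1, had the lowest Ccdc153 and the highest Tmem212 of the controls. The part of ependymal cells in the differences between the kinds of cKO library, among them the cilium gene Lca5, was not tested.

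The other cell type lists went in both directions. The microglial list had a median of -0.24, with 1 higher and 2 lower of 22 at an unadjusted p under 0.05, and its mean log2 level was 5.97 to 6.64 without reads, 5.88 to 7.64 with reads and 6.02 to 7.02 in controls. Between the kinds of cKO library its median was -0.56, with 18 of the 22 lower without reads and 4 of them at an unadjusted p under 0.05 (2.7% of all genes). C5ar1, among the 30 genes, is a gene of such myeloid cells. Beside the 3.03% of all genes that were higher and the 4.55% that were lower at an unadjusted p under 0.05, endothelial and mural genes had a median of 0.43, with 3 higher and 0 lower of 25, the fibroblast list a median of 0.45 with 1 and 0 of 15, and the neuronal list one of -0.25 with 1 and 0 of 20. The mean log2 level of fibroblast genes was 6.95 to 9.52 without reads, 8.44 to 8.53 with reads and 7.24 to 8.73 in controls, with male and female cKO replicate 1 the highest of all. Oligodendrocyte precursor genes had a median of -0.03 with 0 and 1 of 20. Blood and neutrophil genes had a median of -0.43 with 0 and 0 of 11, their mean log2 level spreading over 0.41 to 6.88 without reads, 0 to 0.69 with reads and 0 to 7.98 in controls. Their median was -3.23 with reads against controls and 2.79 between the kinds of cKO library, where all 11 were higher without reads, 1 of them at an unadjusted p under 0.05 (3.5% of all genes). The part of these lists in the results was not tested.

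**Figure D5:**
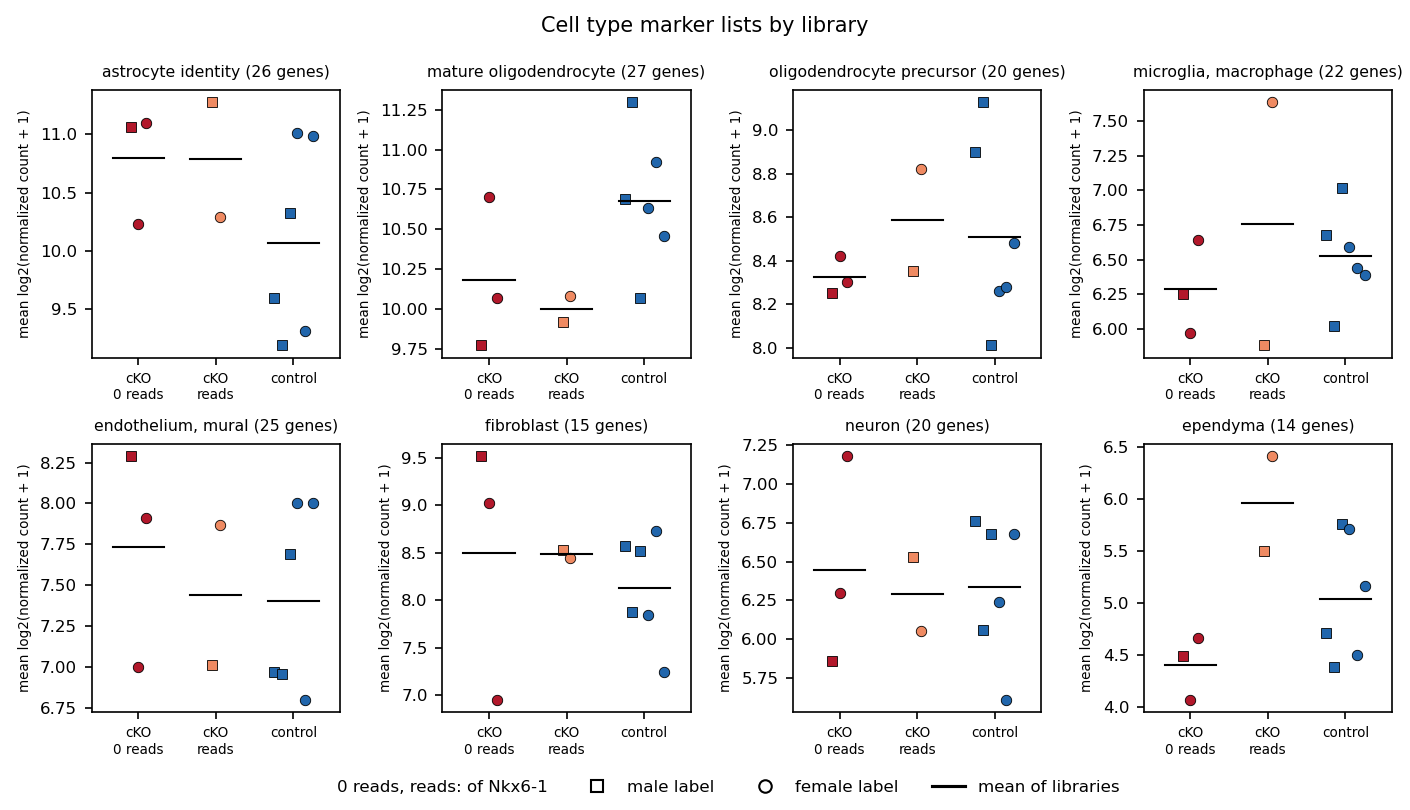
Mean log2(normalized count + 1) of 8 cell type marker lists (vertical axes) in each of the 11 distinct libraries, with cKO libraries without Nkx6-1 reads (dark red) at the left, cKO libraries with reads (orange) in the middle and controls (blue) at the right; squares are male and circles female libraries, and lines are means. The ependymal list is at 4.07 to 4.66, 5.50 to 6.41 and 4.38 to 5.76 in that order, and the mature oligodendrocyte list is lower in most cKO libraries than in most controls.

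Cell cycle genes had a median log2 fold change of -0.67, with 0 higher and 5 lower of 20 tested at an unadjusted p under 0.05 (4.55% of all genes were lower), and a median of -1.46 in the cKO libraries with reads. Beside Mcm2, the condensin subunit Ncapd3 had 37.6, 37.6 and 61.8 normalized counts without reads, 71.2 and 40.2 with reads and 55.3 to 250 in controls (median 172), and the replication clamp Pcna had a log2 fold change of -1.09 (SE 0.40). Most cKO libraries of both kinds lay below most controls for these genes. Synapse-forming and phagocytic factors had a median of 0.48 with 3 higher and 0 lower of 28 (3.03% of all genes were higher), and the highest values of Thbs4, a thrombospondin, were 49.5 and 50.1 in the first 2 cKO libraries without reads, while the third had 0. Genes of semaphorin, ephrin and other guidance signalling had a median of 0.05. Of 37, Nrp2 was the 1 higher and Plxna1, Sema3e and Efnb3 the 3 lower at an unadjusted p under 0.05 (3.03% and 4.55% of all genes). Plxna1, the co-receptor of neuropilins, had 35.0, 87.0 and 63.7 normalized counts without reads, 192 and 58.1 with reads and 77.9 to 179 in controls, a log2 fold change of -1.16 (SE 0.42).

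The other function lists lay near or below the background share of 7.58% of genes at an unadjusted p under 0.05 in either direction. Potassium, calcium and water transport had 1 higher and 1 lower of 27 with a median of 0.45, glutamate and GABA handling 0 and 0 of 25 with a median of 0.38, and glycolysis and monocarboxylate transport 1 and 1 of 29 with a median of 0.24. Cholesterol synthesis had 0 and 1 of 22 with a median of -0.19, the lower gene being Dhcr7, the last enzyme of the pathway. Dhcr7 had 94.7, 165 and 104 normalized counts without reads, 231 and 82.0 with reads and 191 to 317 in controls, so that male cKO replicate 3 was the single cKO library at control level. Lysosomal enzymes had 0 and 2 of 28 with a median of 0.06, ribosomal proteins 1 and 0 of 41 with a median of 0.17, and the respiratory chain 0 and 0 of 37 with a median of 0.17. Interferon and MHC genes had 1 and 0 of 24 with a median of 0.17, and immediate early genes 2 and 0 of 23 with a median of 0.20.

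The 4 of the 30 genes with the smallest p had an adjusted p of 0.108 (Fgf11) and 0.474 (P4htm, Nrp2 and Plk3), so none passed (limma). Their promoters are shown because Nkx6-1 is a DNA-binding factor. Each covers 250 bases before to 50 after the annotated start (RefSeq, GRCm38.p6), 5′ to 3′ along the gene, with every TAAT, the 4-letter core of homeodomain sites, and its reverse complement ATTA in capitals. Fgf11 is on the reverse strand at chr11:69802231-69802530, P4htm on the reverse strand at chr9:108597563-108597862, Nrp2 on the forward strand at chr1:62703067-62703366 and Plk3 on the reverse strand at chr4:117133914-117134213.
Fgf11: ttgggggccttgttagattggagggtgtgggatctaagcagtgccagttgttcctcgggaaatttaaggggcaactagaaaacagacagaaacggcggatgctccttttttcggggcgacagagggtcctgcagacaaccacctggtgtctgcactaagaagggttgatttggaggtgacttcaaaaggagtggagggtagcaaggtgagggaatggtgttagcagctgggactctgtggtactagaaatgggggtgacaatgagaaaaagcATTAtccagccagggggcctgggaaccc
P4htm: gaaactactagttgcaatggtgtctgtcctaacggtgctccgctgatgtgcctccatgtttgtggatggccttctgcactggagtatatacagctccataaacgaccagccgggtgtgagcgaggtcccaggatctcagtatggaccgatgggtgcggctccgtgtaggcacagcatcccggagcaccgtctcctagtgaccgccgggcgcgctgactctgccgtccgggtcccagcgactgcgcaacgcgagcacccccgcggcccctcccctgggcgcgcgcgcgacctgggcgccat
Nrp2: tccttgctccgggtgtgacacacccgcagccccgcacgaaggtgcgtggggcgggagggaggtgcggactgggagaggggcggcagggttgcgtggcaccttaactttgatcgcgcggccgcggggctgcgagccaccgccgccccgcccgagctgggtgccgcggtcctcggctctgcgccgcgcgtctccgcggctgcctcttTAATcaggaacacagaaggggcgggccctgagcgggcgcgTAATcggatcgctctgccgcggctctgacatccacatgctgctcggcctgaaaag
Plk3: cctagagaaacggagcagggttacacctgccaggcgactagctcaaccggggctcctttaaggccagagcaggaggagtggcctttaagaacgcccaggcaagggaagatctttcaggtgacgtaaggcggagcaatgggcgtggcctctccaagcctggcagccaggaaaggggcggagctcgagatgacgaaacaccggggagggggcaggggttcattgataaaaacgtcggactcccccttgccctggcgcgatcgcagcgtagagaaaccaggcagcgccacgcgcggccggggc
Fgf11 holds 1 such core and Nrp2 holds 2, and P4htm and Plk3 hold 0. Of the 30 genes 23 matched the table by symbol, with 29 promoters. The longer site TAATTA, its own reverse complement, which holds both TAAT and ATTA overlapping by 2 letters, was in 0 of the 29 and in 5.29% of all 32851 promoters. TAAT on either strand was in 10 of the 29 (34.5%) and in 58.0% of all. A match is a string of letters and not a bound site, and its absence concerns these windows alone.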

How the data were processed

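RNA-seq libraries were made with the Trio RNA-seq V2 kit from 10 ng of total RNA and sequenced in paired-end mode, per the labels' protocols. The submitters' processing notes name build mm10, the aligner STAR 2.5.0a, the quality tools FastQC 0.10.1 and MultiQC 0.9, and DESeq2 1.20.0. The annotation and strand setting are not given in the sources used here. The deposited table holds a normalized signal per gene and library. In 100% of non-zero values it was a whole multiple (within 0.01 reads) of 1 step per library, so it is a gene count divided by 1 factor per library (called normalized count here), and whole reads were recovered.

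Male cKO replicate 2 and female cKO replicate 2 differed by slightly more than sampling noise alone (chi-square per degree of freedom 1.06, where 1 equals sampling noise, against 15.2 to 145 in the other 65 pairs) and were counted as 1 sample. The female one was used.

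Genes reaching 10 normalized counts in 3 or more of the libraries fitted were tested with limma 3.58.1 (trend, robust; R 4.3.3) on log2(value + 1), with the labelled sex as a term, Benjamini-Hochberg adjustment and a threshold of 0.05. This scale understates changes of low genes. Nkx6-1 was described only. edgeR 4.0.16 and DESeq2 1.42.0 were run on the recovered reads. On simulated counts with 200 changed genes the fits were checked. Other alternatives were pseudocounts of 5 and 0.5, no filter, a filter at 50, a common rescaling, no sex term, a replicate block, each replicate left out, the other library or the mean of the matching pair, each sex alone, and a fit of all 11 distinct libraries. Deviations from group means correlated at -0.111 to 0.032 between same-numbered libraries. The deviations of male cKO replicates 1 and 3 mirror each other by construction, and the groups are small. Whether the numbers pair samples thus cannot be decided from these correlations. The depth at equal draws and the interaction with sex were added after seeing the data.

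The libraries, gene lists and tests were chosen with earlier results of these data known. Named genes were passing genes or, with fewer than 10, the smallest p up to 30 among genes whose groups did not overlap, with a mean of at least 20 in the higher group and an ordinary symbol, plus up to 4 per list, the 5 smallest p of other comparisons and fixed markers. Genes outside this rule, picked with their values known, are Fgfr2, Etv4, Etv5, Dusp6, Spry4, Nkx6-2, Foxj1 and Ptp4a3, and the genes that passed when a replicate was left out. Gene positions are from GENCODE M21 on GRCm38. Intervals and limits of a 0 cover counting error only.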

Additional observations from a re-analysis of the deposited data

Results flagged for a closer look

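Among 42 sets of 6 control values examined for a stray library, 1 was flagged, and chance flags about 1 in 20. Aldh1l1, the gene whose promoter drives the GFP reporter, had 32.1 normalized counts in male control replicate 2, far below the other controls, whose median with it was 156.6.

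Male cKO replicate 2, the library of the matching pair that was not used, had 3546 reads of Xist, the X inactivation transcript of females, which goes against its male label. It also had 0 Nkx6-1 reads.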

How the results depend on the processing

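Choosing genes whose groups do not overlap largely fixes their direction under other settings, so the signs of the 30 genes are no sign of stability. Of their 682 values over 23 alternatives, 18 passed an adjusted p of 0.05. Of the 18, 17 came from DESeq2 and 1 was Fgf11 without female control replicate 1 (adjusted p 0.0387, limma). The counts of passing genes moved with DESeq2, to 36 without Nkx6-1 reads against controls, 11 with reads against controls, 22 between the kinds of cKO library and 4 for all cKO libraries. Leaving out a replicate gave 0 to 2, 0 to 1, 0 to 4 and 0 passing genes in these comparisons. The 2 were Dmrta1 and Tmprss5 without female cKO replicate 1, and the 1 was Fgf11 without female control replicate 1. Without female cKO replicate 3 they were Thsd1 against controls and Cdc42se2, Kcnd3, Thsd1 and Zkscan1 between the kinds. The median distance of the cKO libraries with reads, 31.4%, ran between 23.6% and 35.5% when a replicate was left out. With the replicate block, 0 genes passed in each of the 4 comparisons, with 539, 387, 444 and 635 at an unadjusted p under 0.05, against 972, 902, 813 and 984 without it, and Fgf11 had an adjusted p of 0.975 (limma). In the first comparison that count was 1489 without female cKO replicate 1, 399 in female libraries alone and 1876 in male libraries alone. The interaction with sex passed 0 of 12820 genes, with 1070 at an unadjusted p under 0.05.

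Some list members changed sign against controls, and the cause was not tested. In female libraries alone Epha4 was at -0.21, Fn1 at -0.03 and Gfap at -0.08, and in male libraries alone Cfap43 was at 0.47, Alas2 at 0.82, Camp at 0.10 and Elane at 1.74. Leaving out 1 replicate gave -0.23 to 0.94 for Gfap, -0.21 to 0.85 for Epha4, -0.03 to 0.61 for Fn1, -2.45 to 0.36 for Tm7sf2, -1.71 to 0.01 for Alas2, -1.65 to 0.04 for Camp, -1.87 to 0.75 for Elane, -0.01 to 0.51 for Aldh1l1 and -0.01 to 1.22 for Mbp. Low genes are limited by depth, since 3 reads equal 1.25 to 6.43 normalized counts.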
